A study of Mus musculus with 12 samples.

Results

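The response of CD103+ kidney dendritic cells to nephrotoxic nephritis was followed in 6 RNA libraries, 3 from healthy kidneys and 3 from inflamed kidneys, out of the 12 libraries of the series. The genes described were those with a deposited log2 value of at least 0, which is at least 1 CPM (reads scaled to library size), in at least 3 of these 6 libraries. This kept 13184 of 26121 genes and left out 12937. All 6 mice of the study were wild-type males aged 8 to 12 weeks. The healthy mice have no injection named, and the inflamed mice were killed 7 days after they had been given antiserum that causes nephrotoxic nephritis, a model of glomerulonephritis. Each library came from the sorted cells of a single mouse, and CD11b+ cells sorted from the same mice make up the other 6 libraries, which are used here to set the CD103+ response against another. The mouse strain and the full sort gate are not given in the sources used here.

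CD103 is the integrin alpha E chain, encoded by Itgae, and marks the type 1 conventional dendritic cells (cDC1) of many tissues. These cells depend on the transcription factors Irf8 and Batf3, carry the chemokine receptor Xcr1 and the dead-cell receptor Clec9a, and are known for showing antigen from dead cells to CD8 T cells on MHC class I. Dendritic cells of tissues are renewed from precursors that still divide after they have left the blood. T cells and NK cells can carry CD103 as well, so their transcripts were followed beside those of the dendritic cells.

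The healthy and inflamed libraries differed in make-up before any dendritic cell gene was considered. A list of 19 proximal tubule genes held 6.35%, 6.87% and 4.36% of the CPM total in healthy libraries 1 to 3, against 0.422%, 0.558% and 0.454% in inflamed libraries 1 to 3. Gpx3, a secreted glutathione peroxidase made by the proximal tubule, fell from 30150 ± 6538 CPM (SD, n = 3) to 2507 ± 444 CPM. The mean log2 level of 40 genes common to white blood cells was 6.17, 5.49 and 6.58 in the healthy libraries and 7.79, 7.76 and 7.69 in the inflamed ones. Ptprc, the pan-leukocyte antigen CD45, stood at 307, 177 and 488 CPM in healthy libraries and at 1269, 1304 and 1190 CPM in inflamed ones. Healthy library 2 had the lowest leukocyte level and the highest tubule share of the 6. Recovered read totals ran from 13.9 M to 20.8 M in the healthy libraries and from 20.2 M to 24.3 M in the inflamed ones. In bulk RNA such as this, fewer cells of a type and less RNA per cell cannot be told apart.

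**Figure D1:**
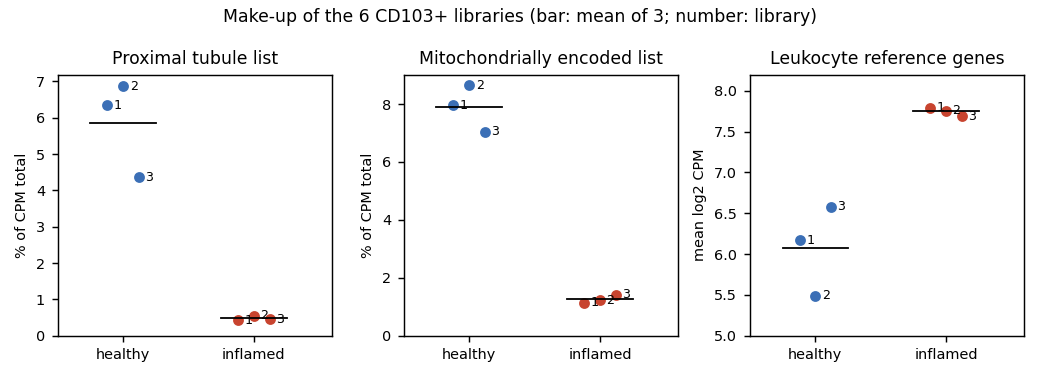
The panels plot, for each CD103+ library, the percent of the CPM total held by the proximal tubule list, the percent held by the mitochondrially encoded list, and the mean log2 CPM of the leukocyte reference genes. Numbers give the library and bars the mean of 3, and the inflamed libraries lie below the healthy ones in the first pair of panels and above them in the last.

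Every change is therefore given on a pair of scales. The deposited scale is the log2 CPM table as it stands. On the leukocyte scale each library was shifted so that the mean of the 40 leukocyte genes was equal in all 6, which lowers every inflamed-minus-healthy difference by 1.67 on the log2 scale, a factor of 3.17. A gene called higher on the deposited scale alone was not shown to rise beyond the leukocyte genes. The median of all 13184 genes was 0.17 on the deposited scale and -1.50 on the leukocyte scale. A gene is called higher or lower where limma's adjusted p, by Benjamini-Hochberg over all 13184 genes, was under 0.05.

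On the deposited scale 64.2% of genes were called, with 4648 higher in nephritis (35.3%) and 3811 lower (28.9%). On the leukocyte scale 71.0% were called, but only 228 were higher (1.73%) against 9131 lower (69.3%). All 228 were also higher as deposited, so 1.73% of genes were higher on both scales and 28.9% were lower on both. A further 23.5% were higher as deposited and not called on the leukocyte scale, and 10.0% were higher as deposited and lower on the leukocyte scale. Of the rest, 30.3% were lower on the leukocyte scale alone and 5.53% were called on neither. The 3 inflamed libraries all lay above the 3 healthy ones for 39.2% of genes as deposited and for 3.12% on the leukocyte scale, and all below for 31.6% and 77.4%. The count of 228 depends on single libraries. It became 430 without healthy library 2, and 110, 126 and 115 without inflamed library 1, 2 and 3.

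**Figure D2:**
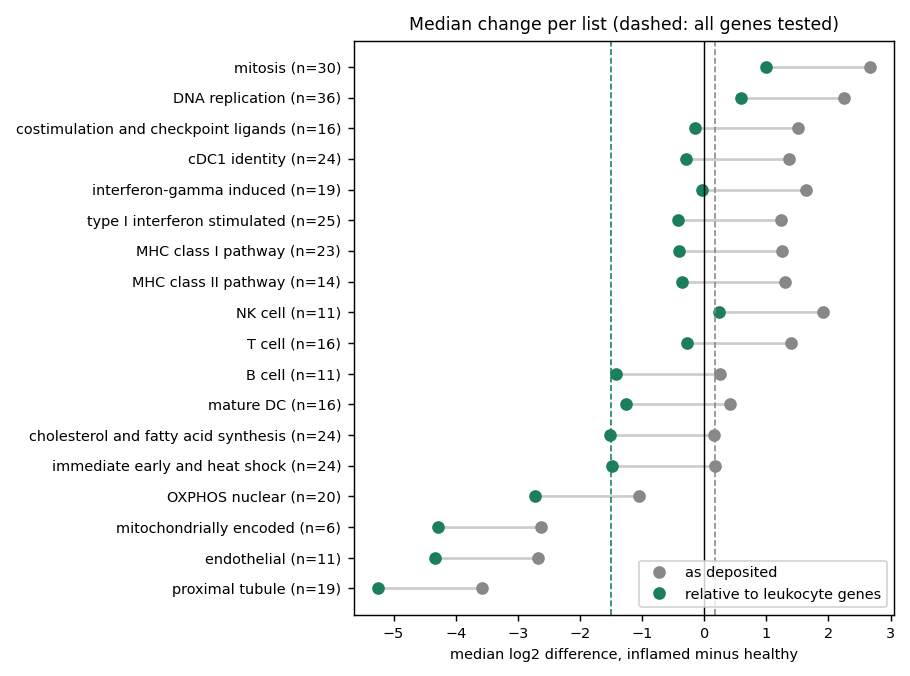
Each row is a gene list with the number of its genes tested, and the points give the median log2 difference, inflamed minus healthy, as deposited (grey) and relative to leukocyte genes (green). Dashed lines mark the medians of all genes tested, 0.17 and -1.50, and of the lists drawn the mitosis and DNA replication lists have the highest medians on both scales.

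The labelled cell type could be checked against its own markers. Itgae, Xcr1, Clec9a, Irf8 and Batf3 were all present in the 6 libraries. Itgae stood at 114, 55.5 and 106 CPM in healthy libraries and at 1229, 993 and 881 CPM in inflamed ones, with no overlap. Its log2 difference was 3.55 ± 0.27 (SE) as deposited (adjusted p = 8.70e-06) and 1.88 ± 0.27 relative to leukocyte genes (adjusted p = 0.000178). In CD11b+ cells the same gene was at 2.22 ± 0.904 CPM in healthy and 4.82 ± 0.207 CPM in inflamed kidneys (SD, n = 3). The response of Itgae was larger in CD103+ than in CD11b+ cells by 1.13 on the log2 leukocyte scale (adjusted p = 0.0177). CD103 was the marker of the sort, so Itgae is no independent check of the cells collected.

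Most other cDC1 genes were called higher as deposited and not relative to leukocyte genes. Of 24 cDC1 genes tested, 21 were higher as deposited and 0 lower, with a median of 1.37. Relative to leukocyte genes 3 were higher, Itgae, Itgax and Ifi205, and 8 were lower, with a median of -0.30. For all genes, 35.3% were higher and 28.9% lower as deposited, with a median of 0.17. On the leukocyte scale 1.73% of all genes were higher and 69.3% lower, with a median of -1.50. Itgax encodes the integrin chain CD11c and Ifi205 a member of the interferon-inducible p200 family. Xcr1 was at 328, 216 and 508 CPM in healthy libraries and at 1249, 1166 and 953 CPM in inflamed ones. It was higher as deposited, by 1.76 ± 0.28 (adjusted p = 0.000550), while its leukocyte-scale difference was 0.09 ± 0.24 (adjusted p = 0.740). Clec9a was at 72.3, 54.2 and 152 CPM against 206, 203 and 166 CPM, a difference of 1.18 ± 0.32 as deposited (adjusted p = 0.00990) and -0.49 ± 0.29 on the leukocyte scale (adjusted p = 0.153). In each fit without an inflamed library the cDC1 identity list had 1 member higher on the leukocyte scale, since Itgax and Ifi205 no longer passed, and without healthy library 2 it had 5.

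The 8 cDC1 genes lower on the leukocyte scale were Cadm1, Cd36, Cd207, Irf8, Batf3, Id2, Snx22 and Flt3. Irf8, the factor on which cDC1 cells depend, was at 415, 206 and 513 CPM in healthy libraries and at 570, 625 and 584 CPM in inflamed ones. It was higher as deposited by 0.75 ± 0.29 (adjusted p = 0.0481) and lower on the leukocyte scale by a difference of -0.92 ± 0.25 (adjusted p = 0.00666). Of the fits that left out 1 library, the rise of Irf8 as deposited passed only without healthy library 3, and it was 0.36 without healthy library 2. Its leukocyte-scale call was lost without inflamed library 1. Batf3, Id2, Snx22 and Flt3 lost their leukocyte-scale calls in each fit without an inflamed library, Snx22 and Flt3 also without healthy library 1, and Cd207 lost it without inflamed library 3. Cadm1, an adhesion molecule of cDC1 cells, differed by 0.10 as deposited (adjusted p = 0.738) and by -1.57 on the leukocyte scale (adjusted p = 0.000512). Among 25 transcription factors of dendritic cell fate, 21 were higher and 0 lower as deposited, with a median of 0.95. On the leukocyte scale 0 were higher and 11 lower, with a median of -0.72. Beside them, 35.3% of all genes were higher as deposited. On the leukocyte scale 69.3% of all genes were lower, with a median of -1.50.

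With unnamed gene models left aside and at least 10 CPM in inflamed libraries, the largest rises passing on both scales without overlap were led by Ccl1, a chemokine whose receptor Ccr8 is carried by regulatory and type 2 helper T cells. Ccl1 (chromosome 11, 82176657 to 82305690, minus strand, GRCm38) was at 0, 0.364 and 0.0606 CPM in healthy libraries, which is 9 reads in all, and at 82.1, 60.3 and 45.1 CPM in inflamed ones, which is 3819 reads. The log2 difference was 9.17 ± 0.76 as deposited (adjusted p = 1.36e-05) and 7.50 ± 0.89 relative to leukocyte genes (adjusted p = 5.37e-05). In CD11b+ cells Ccl1 went from 0.0197 ± 0.0341 to 2.35 ± 0.527 CPM. Its response was larger in CD103+ cells by 3.48 as deposited (adjusted p = 0.0257) and by 2.24 on the leukocyte scale, where it did not pass (adjusted p = 0.148). Ccr8 itself was at 5.27 CPM in inflamed CD103+ libraries.

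Csf2, which encodes the myeloid growth factor GM-CSF, came next under that limit. It was at 0.401, 0 and 0.909 CPM in healthy libraries and at 18.6, 12.8 and 10.1 CPM in inflamed ones. Its log2 difference was 6.00 ± 1.14 as deposited (adjusted p = 0.00147) and 4.33 ± 0.95 on the leukocyte scale (adjusted p = 0.00215), though with 4 CPM added before the log the latter was 0.50 and did not pass. CD11b+ cells had 1.13 ± 0.776 CPM in healthy and 1.24 ± 0.981 CPM in inflamed kidneys, and the responses differed by 4.68 ± 1.37 on the leukocyte scale (adjusted p = 0.0121). Crtam, a receptor of activated T and NK cells that binds Cadm1, was at 1.87, 2.23 and 2.91 CPM against 45.6, 33.5 and 32.6 CPM. Its log2 differences were 3.98 ± 0.25 as deposited and 2.32 ± 0.37 on the leukocyte scale (adjusted p = 0.000326). Klrb1b, an NK cell receptor gene, was at 2.60, 2.18 and 2.73 CPM against 47.9, 44.4 and 49.7 CPM. In CD11b+ cells Klrb1b went from 9.35 ± 2.84 to 46.8 ± 6.74 CPM. The responses of the sorts differed by 0.63 on the leukocyte scale, which did not pass (adjusted p = 0.195). Of the exon bases of Klrb1b 26.9% are shared with another gene, so its reads could partly belong elsewhere.

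Transcripts of T and NK cells were present in all 6 libraries. Most were higher as deposited, and few were higher on the leukocyte scale. All genes tested were higher in 35.3% and lower in 28.9% of cases as deposited, and in 1.73% and 69.3% on the leukocyte scale. The 16 T cell genes summed to 185 to 323.5 CPM in healthy libraries and to 581.9 to 700.7 CPM in inflamed ones, and no member was at 0 reads in either group. Of these, 14 were higher and 0 lower as deposited, with a median of 1.4, and 0 were higher and 6 lower on the leukocyte scale, with a median of -0.27. Cd3e, the defining T cell receptor chain, was at 8.14, 7.41 and 9.58 CPM against 19.4, 27.5 and 28.4 CPM. The 12 NK cell genes summed to 59.49 to 94.27 CPM in healthy libraries and to 223.9 to 258.4 CPM in inflamed ones, with no member at 0 reads in either group. Of 11 tested, 10 were higher as deposited, with a median of 1.91, and Klrb1c alone was higher on the leukocyte scale, with Gzma lower, a call lost without inflamed library 3. With 4 CPM added before the log the leukocyte-scale change of Klrb1c was 0.125 and did not pass. In CD11b+ libraries the T cell genes summed to 869.1 to 1134 CPM in healthy and 681.9 to 803 CPM in inflamed kidneys. The NK cell genes summed there to 352.1 to 381.1 CPM in healthy and 175.8 to 210.7 CPM in inflamed kidneys. The part of T and NK cells in the rises of Ccl1, Csf2, Crtam and Klrb1b was not tested.

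**Figure D3:**
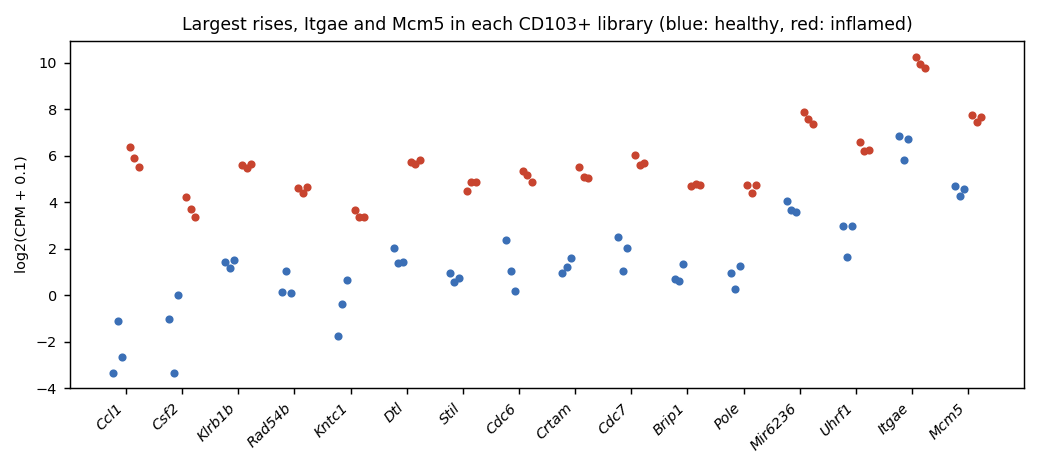
Points give log2(CPM + 0.1) in each of the 3 healthy (blue) and 3 inflamed (red) CD103+ libraries for the 14 largest rises that passed on both scales with at least 10 CPM in inflamed libraries, for Itgae and for Mcm5. The inflamed points lie above all healthy points for each gene, and of the genes drawn Ccl1 and Csf2 had the largest differences.

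The other large rises were mostly genes of cell division. Of the 14 largest, Dtl, Cdc6, Cdc7, Pole, Uhrf1, Stil, Kntc1, Brip1 and Rad54b have known roles in DNA replication, chromatin copying, centrosomes, chromosome attachment or DNA repair. Mir6236, annotated as a microRNA gene, was the remaining member and went from 13.7 ± 2.55 to 197 ± 34.5 CPM. Dtl, the substrate arm of the ubiquitin ligase that removes Cdt1 in S phase, was at 4.01, 2.55 and 2.61 CPM in healthy libraries and at 53.0, 50.4 and 55.8 CPM in inflamed ones. Cdc6, which loads the MCM helicase on origins, was at 5.07, 1.96 and 1.03 CPM against 40.9, 36.4 and 29.0 CPM. Their leukocyte-scale differences were 2.47 ± 0.37 for Dtl (adjusted p = 0.000227) and 2.33 ± 0.59 for Cdc6 (adjusted p = 0.00487). Cdc7, the kinase that starts the loaded helicase, and Brip1, a repair helicase, rose more in CD103+ than in CD11b+ cells, by 1.13 (adjusted p = 0.0309) and 1.47 (adjusted p = 0.00675) on the leukocyte scale. Rad54b shares 35.9% of its exon bases with another gene. With 4 CPM added before the log the leukocyte-scale change of Kntc1 was 0.175 and did not pass.

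The cell-division lists held 111 tested genes, and 45 of them were among the 228 higher on both scales, whose share of all genes was 1.73%. Of the 36 DNA replication genes, 34 were higher and 0 lower as deposited, with a median of 2.25, while on the leukocyte scale 14 were higher and 2 lower, with a median of 0.59. Mcm5, a subunit of the replicative helicase, was at 26.2, 19.4 and 23.5 CPM in healthy libraries and at 217, 173 and 202 CPM in inflamed ones. Its log2 difference was 3.10 ± 0.16 as deposited (adjusted p = 2.94e-06) and 1.44 ± 0.31 on the leukocyte scale (adjusted p = 0.00204). The same gene went from 37.3 ± 4.86 to 137 ± 7.78 CPM in CD11b+ cells, and the responses of the sorts differed by -0.02 ± 0.32 on the leukocyte scale (adjusted p = 0.957). Cdc6, Pole, Clspn, Orc1, Cdc45, Mcm6, Lig1, Mcm10, Mcm4, Mcm3, Gins2, Chaf1a and Chaf1b were the other 13 replication genes higher on both scales. Of these, Gins2, Chaf1a, Chaf1b and Orc1 lost the leukocyte-scale call in each fit without an inflamed library and without healthy library 1, and Mcm10 without inflamed library 1 or 2. Gins4 and Rfc5 were lower on the leukocyte scale, and Pcna, the sliding clamp, differed there by 0.20 (adjusted p = 0.58). The call of Rfc5 was lost without healthy library 1 and in each fit without an inflamed library. With 4 CPM added before the log, Clspn, Gins2 and Chaf1b no longer passed on the leukocyte scale, at 0.593, 0.387 and 0.406. Orc1 and Chaf1a turned negative there.

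Mitosis genes had the highest medians among the lists in the plot of medians. All 30 were higher as deposited, with a median of 2.67, and 22 were higher and 0 lower on the leukocyte scale, with a median of 1.0. Kif11, the motor that separates the spindle poles, was at 4.14, 1.5 and 5.27 CPM in healthy libraries and at 40.4, 36.9 and 48.6 CPM in inflamed ones. Top2a, the topoisomerase that untangles sister chromosomes, was at 29.6, 23.6 and 52.7 CPM against 333, 312 and 325 CPM. Mki67, which coats mitotic chromosomes, was at 18.4, 11.2 and 17.0 CPM against 152, 145 and 136 CPM. Their leukocyte-scale differences were 2.02 ± 0.35 for Kif11 (adjusted p = 0.000557), 1.61 ± 0.28 for Top2a (adjusted p = 0.000525) and 1.58 ± 0.29 for Mki67 (adjusted p = 0.000760). The counts on the leukocyte scale depend on the libraries and on the reference genes. Over the fits that left out 1 library, 10 to 26 mitosis and 9 to 22 DNA replication genes were higher, with the lowest mitosis count without inflamed library 1 and the highest of both without healthy library 2. With Ptprc as the only reference gene 7 mitosis and 5 DNA replication genes were higher. Most of the T and NK cell genes given above were also higher as deposited. On the leukocyte scale 0 of 16 T cell genes and 1 of 11 NK cell genes were higher. The part of T and NK cells in the cell-division changes was not tested.

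**Figure D4:**
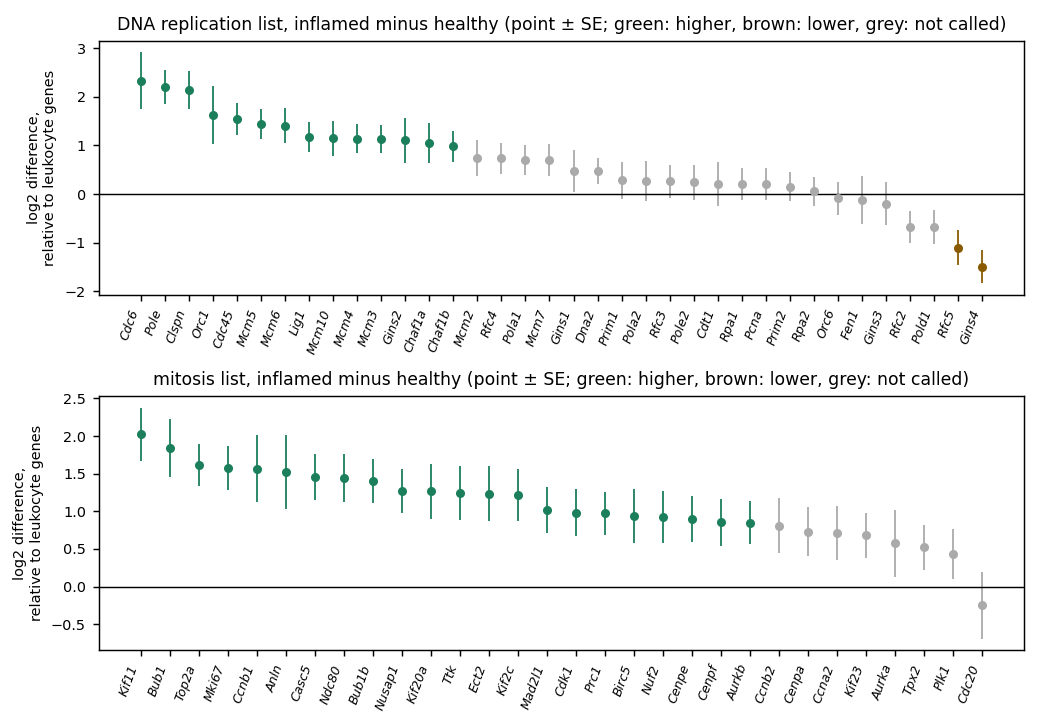
Points give the log2 difference, inflamed minus healthy, relative to leukocyte genes with its SE for each tested member of the DNA replication list (top) and the mitosis list (bottom). Green members were higher, brown ones lower and grey ones not called: 14 of 36 replication genes and 22 of 30 mitosis genes are green.

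Promoters of these genes are shown because replication genes and mitosis genes are known to be read out through different short motifs, the E2F site and the CHR element. In the lines below, each 300-base window runs from 250 bases before to 50 bases after the RefSeq start site (GRCm38.p6), 5′ to 3′ on the gene's strand, and capitals mark E2F letters (TTTCCCGC or TTTGGCGC, either strand) in the promoters of replication genes. Mcm5 is at chr8:75109259-75109558 (plus), Mcm6 at chr1:128359656-128359955 (minus), Cdc6 at chr11:98907901-98908200 (plus) and Dtl at chr1:191575495-191575794 (minus).
Mcm5: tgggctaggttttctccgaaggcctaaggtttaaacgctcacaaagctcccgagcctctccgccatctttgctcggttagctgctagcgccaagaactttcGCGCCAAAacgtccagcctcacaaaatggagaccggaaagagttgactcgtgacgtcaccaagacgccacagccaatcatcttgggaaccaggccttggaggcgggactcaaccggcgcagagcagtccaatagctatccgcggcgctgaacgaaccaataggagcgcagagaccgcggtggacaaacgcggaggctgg
Mcm6: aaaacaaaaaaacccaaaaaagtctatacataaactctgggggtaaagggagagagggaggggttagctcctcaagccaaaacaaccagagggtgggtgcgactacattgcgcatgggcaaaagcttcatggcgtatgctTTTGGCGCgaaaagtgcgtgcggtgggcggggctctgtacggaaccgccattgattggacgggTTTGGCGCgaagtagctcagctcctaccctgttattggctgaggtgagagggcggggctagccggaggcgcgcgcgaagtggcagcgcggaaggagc
Cdc6: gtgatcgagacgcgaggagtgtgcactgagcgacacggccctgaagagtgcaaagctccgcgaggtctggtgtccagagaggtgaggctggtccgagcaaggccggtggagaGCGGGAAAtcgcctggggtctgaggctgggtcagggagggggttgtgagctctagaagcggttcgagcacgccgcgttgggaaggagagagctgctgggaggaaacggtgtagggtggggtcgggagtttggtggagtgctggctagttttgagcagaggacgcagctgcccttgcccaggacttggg
Dtl: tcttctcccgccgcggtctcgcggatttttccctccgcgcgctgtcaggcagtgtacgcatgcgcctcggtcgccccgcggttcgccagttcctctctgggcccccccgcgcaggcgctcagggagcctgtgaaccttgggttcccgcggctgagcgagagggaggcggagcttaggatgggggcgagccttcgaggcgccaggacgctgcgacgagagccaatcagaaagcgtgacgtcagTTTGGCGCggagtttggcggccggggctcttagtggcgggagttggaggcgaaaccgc

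For mitosis genes the capitals mark the CHR letters TTTGAA on either strand. Kif11 is at chr19:37376132-37376431 (plus) and Top2a at chr11:99024140-99024439 (minus).
Kif11: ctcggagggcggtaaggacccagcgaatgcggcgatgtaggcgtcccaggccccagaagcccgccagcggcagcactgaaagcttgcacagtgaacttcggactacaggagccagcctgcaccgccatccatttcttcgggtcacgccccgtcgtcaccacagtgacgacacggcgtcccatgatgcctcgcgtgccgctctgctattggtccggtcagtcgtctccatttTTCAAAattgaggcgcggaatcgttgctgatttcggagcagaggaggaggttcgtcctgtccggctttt
Top2a: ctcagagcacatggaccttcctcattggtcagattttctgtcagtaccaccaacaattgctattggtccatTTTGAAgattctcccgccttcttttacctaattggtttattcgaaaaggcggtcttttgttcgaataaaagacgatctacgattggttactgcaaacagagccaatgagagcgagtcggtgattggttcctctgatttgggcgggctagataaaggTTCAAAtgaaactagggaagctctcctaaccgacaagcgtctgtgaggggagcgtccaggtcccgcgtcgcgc

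The E2F letters stood in 11 of 29 replication promoters that matched by symbol (37.9%), in 0 of 25 mitosis promoters and in 1.80% of 27025 promoters overall. The CHR letters stood in 18 of 25 mitosis promoters (72.0%), in 13.8% of the replication promoters and in 20.2% of all promoters. Among tested genes with a promoter, 3.39% held the E2F letters and 14.8% the CHR letters, against 11.4% and 33.5% of the 167 promoters of genes higher on both scales. Within the lists the share was no larger among genes higher on both scales. The CHR letters stood in 63.2% of 19 such mitosis promoters and the E2F letters in 36.4% of 11 such replication promoters. Mcm6 holds a pair of E2F matches and Top2a a pair of CHR matches in its window. Neither set of letters contains the other, and the matches describe letters, not binding.

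Genes that supply nucleotides and those that control entry into S phase split. Their counts are to be read beside 35.3% of all genes higher and 28.9% lower as deposited. On the leukocyte scale 1.73% of all genes were higher and 69.3% lower. Of 20 nucleotide supply genes, 12 were higher and 4 lower as deposited, and 4 were higher and 10 lower on the leukocyte scale, with medians of 0.88 and -0.79. The 4 higher on both scales were Rrm2, Rrm1, Tyms and Dck, which make or salvage deoxynucleotides. Rrm2, the regulated subunit of ribonucleotide reductase, was at 43.2, 32.0 and 53.2 CPM against 343, 330 and 322 CPM (leukocyte-scale difference 1.32 ± 0.27, adjusted p = 0.00154). Shmt1, Shmt2 and Mthfd1, enzymes that move single carbon units, were among those lower on both scales, with Shmt1 falling from 130 ± 20.8 to 31.1 ± 4.63 CPM. Proximal tubule RNA fell as well, and its part in these falls was not tested. Of 25 genes of cell cycle brakes and G1, 18 were higher and 2 lower as deposited, and 5 were higher and 8 lower on the leukocyte scale, with medians of 1.4 and -0.27. The 5 were the cyclins Ccne1 and Ccne2, the repressive E2F factors E2f7 and E2f8, and Rbl1, while Ccnd1 and the inhibitor Cdkn2c were lower on both scales. Rbl1 lost its leukocyte-scale call in each fit without an inflamed library and without healthy library 1 or 3, Ccne2 without inflamed library 3 and E2f7 without inflamed library 2, and of the 4 nucleotide genes Rrm1 lost it without any of the inflamed libraries or healthy library 1 and Tyms without inflamed library 1 or 3. Cdkn2c lost its call as deposited without inflamed library 1. With 4 CPM added before the log, Ccne1, Ccne2, E2f8 and Rbl1 did not pass on the leukocyte scale, at 0.122, 0.681, 0.577 and 0.329. E2f7 turned negative there.

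Chemokines and cytokines moved in both directions. So did all genes, with 35.3% higher and 28.9% lower as deposited. On the leukocyte scale 1.73% of all genes were higher and 69.3% lower. Of 19 chemokines tested, 12 were higher and 2 lower as deposited, and 5 were higher and 8 lower on the leukocyte scale, with medians of 1.28 and -0.39. Besides Ccl1 the higher ones were Cxcl9, Cxcl11, Cxcl1 and Xcl1. Cxcl9, an interferon-gamma induced attractant of Cxcr3+ T cells, was at 9.68, 15.6 and 16.1 CPM in healthy libraries and at 144, 184 and 123 CPM in inflamed ones. It was higher by 3.46 ± 0.23 as deposited and by 1.80 ± 0.38 on the leukocyte scale (adjusted p = 0.00178). In CD11b+ cells it went from 10.5 ± 1.46 to 135 ± 20.2 CPM, and the responses of the sorts differed by -0.22 as deposited, which did not pass (adjusted p = 0.591), and by -1.46 on the leukocyte scale (adjusted p = 0.0124). Xcl1, the ligand of Xcr1 and a product of NK and CD8 T cells, was at 1.47, 0.773 and 2.67 CPM against 20.4, 13.1 and 10.8 CPM, a leukocyte-scale difference of 1.6 ± 0.42 (adjusted p = 0.00556). It shares 18.7% of its exon bases with another gene, and Cxcl11 shares 41.7%. The leukocyte-scale calls of Cxcl11 and Cxcl1, both under 7 CPM in every library, were lost without healthy library 1 or inflamed library 2 or 3, that of Cxcl11 also without inflamed library 1, and they turned to -0.59 and -0.53 with 4 CPM added, and that of Xcl1 was lost without inflamed library 1, at 1.37. Cxcl12 and Cx3cl1, which stromal, endothelial and tubule cells also make, were lower on both scales, at 1.38 and 0.899 CPM in inflamed libraries.

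Of 20 cytokines tested, 10 were higher and 2 lower as deposited, and 2 were higher and 8 lower on the leukocyte scale, with medians of 0.98 and -0.69. For all genes the shares were 35.3% and 28.9% as deposited, and 1.73% and 69.3% on the leukocyte scale. The higher pair of cytokines was Csf2 and Il10. Il10, which encodes the anti-inflammatory interleukin 10, was at 0.267, 0.0455 and 0 CPM in healthy libraries, 5 reads in all, and at 4.59, 5.93 and 8.38 CPM in inflamed ones. Its log2 difference was 6.17 ± 0.86 as deposited (adjusted p = 0.000246) and 4.50 ± 0.94 on the leukocyte scale (adjusted p = 0.00160), though with 4 CPM added before the log the latter turned to -0.18. CD11b+ cells went from 1.48 ± 1.07 to 7.99 ± 2.20 CPM of Il10. Il15, which sustains memory T cells and NK cells, and Il34, a ligand of the CSF1 receptor made by tubule cells, were lower on both scales, though the call of Il15 as deposited was lost without inflamed library 1. Il12b, a chain of interleukin 12, was at 7.81, 28.0 and 11.9 CPM against 31.0, 26.8 and 28.0 CPM, so the groups overlap, and its leukocyte-scale difference was -0.62 ± 0.57 (adjusted p = 0.343).

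**Figure D5:**
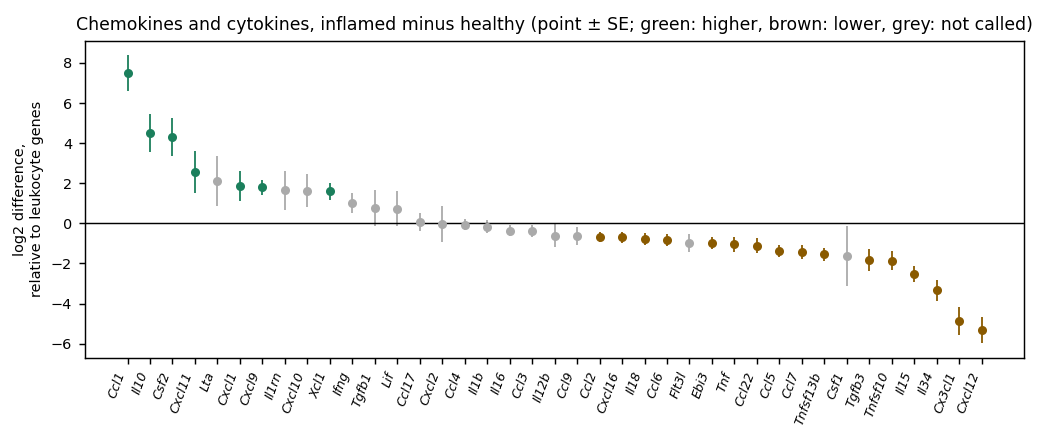
Points give the log2 difference, inflamed minus healthy, relative to leukocyte genes with its SE for each tested chemokine and cytokine of the lists. Green members were higher, brown ones lower and grey ones not called, and Ccl1 at 7.50, Il10 at 4.50 and Csf2 at 4.33 lie at the top.

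Ligands and receptors by which dendritic cells deal with T cells differed by list in how many were called higher as deposited alone. These were 10 of 16 costimulation and checkpoint ligands and 11 of 17 chemokine receptors. In the other lists they were 3 of 14 regulatory T cell support genes and 14 of 28 growth factor and cytokine receptors. The same share of all genes was 23.5%, and the regulatory T cell support genes were near it. As deposited 35.3% of all genes were higher and 28.9% lower. On the leukocyte scale these shares were 1.73% and 69.3%. Of 16 costimulation and checkpoint ligands, 13 were higher and 1 lower as deposited, and 2 were higher and 3 lower on the leukocyte scale, with medians of 1.51 and -0.16. The higher pair was Cd274, which encodes PD-L1, and Tnfsf18, which encodes the ligand of GITR. Cd274 was at 4.67, 3.55 and 4.91 CPM against 28.2, 26.3 and 21.6 CPM, a leukocyte-scale difference of 0.87 ± 0.33 (adjusted p = 0.0373), and 14.1% of its exon bases are shared. Tnfsf18 was at 0.0668, 0.318 and 0.485 CPM against 1.82, 2.96 and 6.29 CPM (leukocyte-scale adjusted p = 0.0482). Both calls on the leukocyte scale were lost without healthy library 1 or inflamed library 2 or 3, and that of Cd274 also without healthy library 3 or inflamed library 1. Of 14 regulatory T cell support genes, 6 were higher and 3 lower as deposited, and Ccl1, Il10 and Cd274 were higher and 5 lower on the leukocyte scale, with medians of 1.35 and -0.31. Itgb8, which activates TGF-beta on dendritic cells and is also made by kidney epithelium, fell from 41.3 ± 4.71 to 7.95 ± 1.75 CPM and was lower on both scales. Of 28 growth factor and cytokine receptors, 18 were higher and 1 lower as deposited, and Il2ra alone was higher and 12 lower on the leukocyte scale, with medians of 1.23 and -0.44. The call of Il2ra was lost in each fit without an inflamed library. Of 17 chemokine receptors, 11 were higher and 1 lower as deposited, with 0 higher and 5 lower on the leukocyte scale and medians of 1.41 and -0.26.

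Genes of the mature, migrating dendritic cell were called at shares near those of all genes. Of 16 tested, 5 were higher and 2 lower as deposited, with a median of 0.41, beside 35.3% of all genes higher. On the leukocyte scale 0 were higher and 12 lower, with a median of -1.26, beside 69.3% of all genes lower and a median of -1.50. Ccr7, the receptor that takes dendritic cells to lymph nodes, was at 46.1, 40.4 and 61.2 CPM in healthy libraries and at 38.1, 42.9 and 39.7 CPM in inflamed ones. The groups overlap, and its difference was -0.27 ± 0.18 as deposited (adjusted p = 0.204) and -1.94 ± 0.29 on the leukocyte scale (adjusted p = 0.000230). Tmem176a and Tmem176b, a neighbouring pair of membrane protein genes, fell on both scales, with Tmem176a going from 572 ± 135 to 63.2 ± 7.65 CPM. The part of proximal tubule RNA, which fell too, was not tested.

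Interferon and antigen presentation genes were mostly higher as deposited, and few were higher relative to leukocyte genes. Their counts stand beside 35.3% of all genes higher and 28.9% lower as deposited. On the leukocyte scale the shares of all genes were 1.73% and 69.3%, with a median of -1.50. Of 19 interferon-gamma induced genes, 18 were higher and 0 lower as deposited, with a median of 1.63, and Cxcl9, Iigp1 and Gbp4 were higher and 0 lower on the leukocyte scale, with a median of -0.03. Iigp1, a GTPase that attacks the vacuoles of parasites, was at 2.74, 2.14 and 0.485 CPM against 20.1, 16.4 and 25.5 CPM (leukocyte-scale difference 2.14 ± 0.72, adjusted p = 0.0200). Its call on that scale was lost without inflamed library 3, and that of Gbp4 without any of the inflamed libraries or healthy library 1. Of 25 type I interferon stimulated genes, 16 were higher and 1 lower as deposited, and 0 were higher and 5 lower on the leukocyte scale, with medians of 1.24 and -0.42. Of 23 MHC class I pathway genes, 19 were higher and 1 lower as deposited, and 0 were higher and 10 lower on the leukocyte scale, with medians of 1.25 and -0.41. Of 14 MHC class II pathway genes, 11 were higher and 0 lower as deposited, and 0 were higher and 6 lower on the leukocyte scale, with medians of 1.31 and -0.36. Cd74, the invariant chain, showed both calls, with differences of 1.15 ± 0.30 (adjusted p = 0.00748) and -0.52 ± 0.15 (adjusted p = 0.00898), the latter lost in each fit without an inflamed library.

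Among sensing and uptake genes, single members passed on both scales. The shares of all genes were 35.3% higher and 28.9% lower as deposited, and 1.73% higher and 69.3% lower on the leukocyte scale. Of 21 pattern recognition genes 16 were higher and 0 lower as deposited, and Tmem173, which encodes the DNA sensor adaptor STING, was the member higher on the leukocyte scale, with 5 lower and medians of 1.41 and -0.26. Of 17 C-type lectins and uptake receptors 12 were higher and 1 lower as deposited, and Clec7a, the beta-glucan receptor Dectin-1, was higher and 5 lower on the leukocyte scale, with medians of 1.26 and -0.41. Of 15 Fc receptor and complement genes 7 were higher and 2 lower as deposited, and Cfp, which encodes properdin, was higher and 6 lower on the leukocyte scale, with medians of 1.26 and -0.41. Of 20 NF-kB genes 16 were higher and 1 lower as deposited, with 0 higher and 7 lower on the leukocyte scale and medians of 1.13 and -0.53. Of 18 apoptosis regulators 13 were higher and 2 lower as deposited, and Bcl2a1a was higher and 7 lower on the leukocyte scale, with medians of 1.26 and -0.41. Bcl2a1a has near-identical copies, so its reads are uncertain. The leukocyte-scale calls of Tmem173, Clec7a and Bcl2a1a were lost in each fit without an inflamed library and without healthy library 1, and that of Cfp without inflamed library 1 or 3. Of 21 integrin and adhesion genes 13 were higher and 5 lower as deposited, and Itgae and Itgax were higher and 11 lower on the leukocyte scale, with medians of 0.95 and -0.72.

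Metabolic and stress genes differed by list, and the cholesterol and immediate early lists had medians near those of all genes (0.17 and -1.50). Of all genes 35.3% were higher and 28.9% lower as deposited. On the leukocyte scale 1.73% of all genes were higher and 69.3% lower. All 20 nuclear genes of oxidative phosphorylation were lower on both scales, with medians of -1.05 and -2.72, and so were all 6 mitochondrially encoded genes, with medians of -2.62 and -4.29. Proximal tubule RNA fell with them, and its part was not tested. Of 21 glycolysis and hypoxia genes 9 were higher and 8 lower as deposited, with 0 higher and 14 lower on the leukocyte scale and medians of -0.16 and -1.82. Of 24 cholesterol and fatty acid synthesis genes 4 were higher and 8 lower as deposited, with 0 higher and 19 lower on the leukocyte scale and medians of 0.16 and -1.51. Of 17 unfolded protein response genes 13 were higher and 1 lower as deposited, with 0 higher and 9 lower on the leukocyte scale and medians of 0.68 and -0.99. Of 24 immediate early and heat shock genes, which can respond to tissue digestion, 6 were higher and 4 lower as deposited, with 0 higher and 21 lower on the leukocyte scale and medians of 0.18 and -1.49. Fos was higher as deposited, by 1.38 ± 0.23 (adjusted p = 0.000678), while Jun was lower, by a difference of -1.17 ± 0.17 (adjusted p = 0.000313). The leukocyte shift lowers every difference by 1.67, so neither gene was higher relative to leukocyte genes.

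Most genes of the kidney cell lists were lower on both scales. Of 54 tested genes in the kidney cell lists, 43 were among the 3811 lower on both scales (28.9% of all genes). These were 18 of 19 proximal tubule, 13 of 14 distal nephron, 9 of 11 endothelial, 2 of 4 podocyte and 1 of 6 mesenchymal genes, while Col1a1, a collagen chain, was higher on both scales, a leukocyte-scale call that was lost without any of the inflamed libraries or healthy library 1. Slc22a7, an organic anion transporter of the proximal tubule, was at 24.1, 18.1 and 10.6 CPM in healthy libraries and had 0 reads in all 3 inflamed ones, so it was at least 360-fold lower, taking 3 reads over the inflamed group as the floor. Emcn, an endothelial sialomucin, was at 12.4, 56.0 and 25.4 CPM against 0.0505, 0 and 0.742 CPM. Calb1, the calcium-binding protein of the distal nephron, was at 383, 972 and 320 CPM against 3.28, 4.99 and 20.8 CPM, and was lower by a difference of -6.13 ± 0.69 as deposited (adjusted p = 0.000175). Hpd, of tyrosine breakdown, Acsm3, an acyl-CoA synthetase, Aspg, Cyp2d9, Ttc36, Pvalb and Rnase1 were the others of the 10 largest falls among genes with at least 10 CPM in healthy libraries, from means of 10.4 to 169 CPM in healthy libraries to 0.225 to 2.9 CPM in inflamed ones. The calls of Pvalb were lost without healthy library 3 on both scales and without healthy library 2 as deposited. Ttc36 shares 47.6% and Acsm3 39.7% of exon bases with another gene, and Cyp2d9 belongs to a family of near-identical genes.

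Markers of other leukocytes were read in the same way, beside 35.3% of all genes higher and 28.9% lower as deposited. On the leukocyte scale 1.73% of all genes were higher and 69.3% lower, with a median of -1.50. Of 12 cDC2 genes 8 were higher and 1 lower as deposited, with 0 higher and 4 lower on the leukocyte scale, and all 14 listed genes summed to 169.3 to 394.8 CPM in healthy and 511.8 to 523 CPM in inflamed libraries. Of 10 macrophage genes 4 were higher and 3 lower as deposited, with 0 higher and 4 lower on the leukocyte scale, and all 14 listed genes summed to 446 to 482.6 CPM against 445.2 to 510.6 CPM. Maf and Mertk, a transcription factor and a dead-cell receptor of macrophages, were among those lower on both scales, and Trem2 had 0 reads in the inflamed group. Maf was at 248 CPM in healthy CD103+ and 100 CPM in healthy CD11b+ libraries, and Mertk at 14.3 and 4.96 CPM. The 14 listed macrophage genes summed to 1088 to 1236 CPM in healthy CD11b+ libraries. Proximal tubule RNA was higher in healthy CD103+ libraries, and its part in the falls of Maf and Mertk was not tested. Of 7 monocyte genes 4 were higher and 0 lower as deposited, and Ms4a4c and Plac8 were higher and 3 lower on the leukocyte scale. Ms4a4c went from 5.25 ± 3.00 to 43.4 ± 2.08 CPM and Plac8 from 43.4 ± 10.0 to 239 ± 35.9 CPM, and the leukocyte-scale call of Plac8 was lost in each fit without an inflamed library and without healthy library 1. Of 11 B cell genes 2 were higher and 1 lower as deposited, with 0 higher and 7 lower on the leukocyte scale, and all 12 listed genes summed to 48.94 to 52.26 CPM against 40.89 to 47.75 CPM. The leukocyte-scale median of the B cell list, -1.41, was near that of all genes. Of 6 plasmacytoid dendritic cell genes 4 were higher and 1 lower as deposited, with 0 higher and 3 lower on the leukocyte scale. Of 3 mast cell and basophil genes 1 was higher and 1 lower as deposited, and 2 were lower on the leukocyte scale. A single neutrophil gene of 11 was tested, Lcn2, and it was higher as deposited, where the summed level of the 11 was 0.734 to 4.73 CPM against 2.86 to 15.1 CPM. Of the 39 leukocyte reference genes tested, 37 were higher as deposited, and 3 were higher and 4 lower on the scale they define.

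Some genes changed call with the scale. By the rule of the largest change on both sides, Eif3d, Pigs, Mfap1a, Rpl6, Polk and Entpd1 stood midway, each about 0.83 higher as deposited and 0.83 lower on the leukocyte scale. The rule picks genes near the middle of the 1.67 shift, so this value was set by the rule. Entpd1, the ectoenzyme CD39 that breaks down ATP outside cells, was at 40.7, 27.3 and 63.2 CPM in healthy libraries and at 89.5, 75.2 and 59.4 CPM in inflamed ones, so its groups overlap as deposited. Eif3d, a subunit of a translation initiation factor, was at 52.3, 50.5 and 47.3 CPM against 88.6, 94.7 and 84.4 CPM, and 43.3% of its exon bases are shared with another gene. The leukocyte-scale calls of all 6 were lost in each fit without an inflamed library and, except for Rpl6, without healthy library 1. The call of Entpd1 as deposited was lost without healthy library 1 or 2 or inflamed library 1 or 2, at 0.54 to 0.83.

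The response of CD103+ cells was also set against that of CD11b+ cells in a fit of all 12 libraries. The fit had 1 mean per group and no term for the mouse, although both sorts came from the same mice, and the labels do not say which libraries share one. It also took the spread of a gene as equal in all groups. The mean log2 leukocyte level had an SD of 0.549 in healthy CD103+ libraries. In healthy CD11b+, inflamed CD103+ and inflamed CD11b+ libraries its SD was 0.0896, 0.0518 and 0.0208. Where the spread of a gene differs likewise, the adjusted p of its difference of responses could be too small. As deposited, 18.9% of genes responded more in CD103+ cells and 18.8% less, and on the leukocyte scale 151 genes (1.15%) responded more and 6611 (50.1%) less. The count of 151 became 298 without CD103+ healthy library 2, 98 without CD103+ inflamed library 2 and 95 without CD103+ inflamed library 3. Proximal tubule genes held between 1.02% and 2.47% of the CPM total of healthy CD11b+ libraries and between 0.470% and 0.652% of the inflamed ones, beside the CD103+ values given above. Of the 14 largest rises, Csf2, Crtam, Cdc7 and Brip1 responded more in CD103+ cells on both scales, and the other 10 did not pass on the leukocyte scale. In CD11b+ libraries Xcr1 was at 19.7 ± 5.34 CPM in healthy and 4.77 ± 1.16 CPM in inflamed kidneys, and the responses of the sorts differed by 2.55 ± 0.33 (adjusted p = 0.000255). Kif11 rose more in CD103+ cells, by 1.95 ± 0.40 on the leukocyte scale (adjusted p = 0.00166), whereas Mki67 missed the threshold there at 0.73 ± 0.33 (adjusted p = 0.0774).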

How the data were processed

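RNA of CD103+ kidney dendritic cells from 3 healthy and 3 nephritic mice was sequenced, with CD11b+ cells of the same mice as the other 6 libraries. Per the labels' protocols, white blood cells were enriched with CD45 beads and sorted, cDNA was made with a SMARTer Ultra Low kit, amplified for 12 cycles and read as 50-base single reads. The submitters' processing notes name STAR 2.0.4b, Subread, featureCounts 1.4.5 and edgeR. Whether counting used strand, and the genome build, are not given in the sources used here. The authors deposited log2 values in a table of 26281 lines. In each library the values give whole reads for 100% of genes within 0.05 (log2 CPM, offset 0.5 reads, scaling factors 0.921 to 1.081), and CPM in the text are these reads per scaled library size. Dropping 160 repeats left 26121 genes. Of these 26004 are in GENCODE M21 (GRCm38), which gave coordinates, exon overlaps and the 27 symbols that had become dates.

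The log2 values were fitted with limma 3.58.1 (R 4.3.3), 1 mean per group, trended and robust, over the 6 CD103+ libraries, as deposited and after the leukocyte shift. The difference from CD11b+ cells was fitted over all 12. Tests were two-sided, adjusted by Benjamini-Hochberg over 13184 genes, threshold 0.05. The fits were tested on simulated data. Lists (44, with 788 genes, 780 found and 702 tested) and members were chosen with earlier results of these data known. Named are the 14 largest rises and 10 largest falls as deposited that passed both scales without overlap and reached 10 CPM, the 6 widest changes of call, 7 preset genes and up to 4 genes per list; unnamed gene models, immunoglobulin and T cell receptor segments and pseudogenes were passed over. Further list members were named after their values were seen. A gene picked by these rules is not reported here, but it stayed in every fit and count. The replicate numbers pair no mice across states. Intervals and the floor of 3 reads cover counting error only. Alternatives were a pseudocount of 1 or 4 CPM, other filters, other centrings, array weights, all 12 libraries, a replicate block, no trend, voom weights (added after seeing the data) and leaving out each library. Python 3.11.15 with pandas 2.3.3 made the tables and matplotlib 3.10.9 the figures.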

Additional observations from a re-analysis of the deposited data

Results flagged for a closer look

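Among the 14 largest rises and the preset genes Itgae, Xcr1, Clec9a, Ccl1, Mcm5, Ptprc and Gpx3, the response differed between CD103+ and CD11b+ cells on both scales, by a test of the difference itself, for 8. Other genes named above, such as Slc22a7 and Maf, also passed on both scales. On the log2 leukocyte scale the CD103+ minus CD11b+ difference of responses was 4.68 for Csf2, 2.19 for Crtam, 1.13 for Cdc7, 1.47 for Brip1, 1.13 for Itgae, 2.55 for Xcr1, 1.06 for Clec9a and -3.44 for Gpx3. Crtam reached 37.3 ± 7.26 CPM (SD, n = 3) in inflamed CD103+ libraries and 5.59 ± 3.01 CPM in inflamed CD11b+ libraries. In CD11b+ cells Clec9a went from 9.26 ± 2.48 CPM in healthy to 4.17 ± 0.517 CPM in inflamed libraries. T and NK cell transcripts were present beside Csf2 and Crtam, and tubule transcripts fell with Gpx3, and their part in these differences was not tested.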

How the results depend on the processing

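As deposited, 4648 genes were higher, and 3011 were higher when tubule and mitochondrial genes were taken out of the library totals. On the leukocyte scale the count of genes higher, 228 alone and on both scales, became 110 with 4 CPM added before the log and 943 with array weights, whose fit did not reach its convergence tolerance. It became 85 with Ptprc as the only reference. The 9131 genes lower became 13782 with no filter, where more genes were tested. Leaving out each library gave 110 to 430 genes higher, alone and on both scales. For the difference of responses on the leukocyte scale, 151 genes higher became 696 with array weights and 95 to 298 over the libraries left out. With 4 CPM added, leukocyte-scale changes turned to -0.18 for Il10, -0.59 for Cxcl11, -0.53 for Cxcl1, -0.69 for Tnfsf18, -0.094 for E2f7, -0.014 for Orc1, -0.22 for Chaf1a and -0.52 for Col1a1. Under that setting 22 changes of named genes no longer passed, among them Csf2 at 0.50, Kntc1 at 0.175, Klrb1c at 0.125, Xcl1 at 0.229 and Il2ra at 0.019. Clspn, E2f8, Ccne1, Ccne2, Iigp1, Gbp4, Cd274 and Clec7a were others. The cause of these shifts was not tested except where named.

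The other counts stayed within 1.5 times their main value. With the replicate block, which joins different mice, 4438 genes were higher and 3689 lower as deposited, 210 and 8870 on the leukocyte scale, and 2336 and 2358, then 128 and 6196, for the difference of responses. Same-numbered healthy and inflamed libraries deviated with correlations of 0.045, -0.107 and -0.044, so no pairing was read from them. With voom weights 4726 and 3848 genes were called as deposited and 186 and 9239 on the leukocyte scale. Among 388 changes of named genes and 6726 alternatives, 6285 kept direction and call, 433 no longer passed and 8 turned. The count tests of edgeR, planned as alternatives, were not run, and the voom weights on recovered reads took their place. Depth limits genes such as Ccl1, Csf2 and Il10, whose healthy levels rest on 9, 21 and 5 reads.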
